A study of Mus musculus with 12 samples.

Results

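The adult hemoglobin of the mouse is made from the alpha chain genes Hba-a1 and Hba-a2 and the beta chain genes Hbb-bs and Hbb-bt, and the erythroid enzyme Alas2 catalyses the first step of the heme made for it. These 5 genes, of the 36008 in the deposited expression table, were chosen by name and are described here over every library of the series. Only Alas2 among them is an enzyme of heme synthesis, so other enzymes of that pathway are given beside it. All 5 passed the filter on low values, which kept the 10481 genes above 5 TPM (abundance per transcript length, scaled to the sum of its library) in at least 1 library.

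The 12 libraries were made from polyA RNA of the gastrocnemius, a calf muscle, and of the quadriceps, a thigh muscle, of 6 female mice. Mice M02, M03 and M08 stayed on the ground and M11, M12 and M20 were flown on the International Space Station, so that each of the 4 groups holds 3 libraries and each mouse gives both muscles. All were 30 weeks old at the start, spent 9 weeks in flight or in matching hardware on the ground, and received injections of PBS, as controls of a trial of a bone drug. The carcasses were frozen and the muscles were dissected from the left hind limb after thawing. The sample labels give the strain as C57BL/6 and the study's methods give BALB/c; no comparison used the strain, but inbred strains differ in their beta-globin haplotype, and the haplotype of these mice was not tested. The values of Hbb-bs and Hbb-bt, and the split between them, are those assigned to the reference haplotype.

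In an adult mouse the globin chains and Alas2 are made by red cell precursors in the bone marrow and spleen. Young red cells that leave the marrow still carry globin RNA, which is lost as they mature, and a muscle sample contains the blood that is left in its vessels. Muscle fibers make heme with the housekeeping enzyme Alas1 and hold their own oxygen-binding protein, myoglobin (Mb). In bulk RNA, fewer cells of a type and less RNA per cell cannot be told apart.

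The chain genes come as near-identical copies, which bears on every single value below. On GRCm38 (the mm10 build of the authors' processing, with GENCODE vM21 gene models), Hba-a1 is at chr11:32283511-32284465 and Hba-a2 at chr11:32296489-32297298, both on the plus strand. Hbb-bs is at chr7:103826534-103828096 and Hbb-bt at chr7:103812524-103813996, both on the minus strand, and Alas2 is at chrX:150547375-150570638 on the plus strand. Each chain gene has 3 exons and Alas2 has 11 exons in its first listed transcript. The coding sequences of Hba-a1 and Hba-a2 are 429 bases long and differ at 1 base, C381T, counted from the first base of the start codon with the Hba-a1 base first. Those of Hbb-bs and Hbb-bt are, in the reference haplotype, 444 bases long and also differ at 1 base, C417T, with the Hbb-bs base first. The 50 coding bases that end at the difference, as long as 1 read of these libraries, are shown for each copy with that base in capitals, because they show how little a read from the coding part can say about its copy.
Hba-a1: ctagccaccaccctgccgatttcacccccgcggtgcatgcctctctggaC
Hba-a2: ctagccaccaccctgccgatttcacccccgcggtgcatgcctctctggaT
Hbb-bs: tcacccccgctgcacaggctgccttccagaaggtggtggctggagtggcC
Hbb-bt: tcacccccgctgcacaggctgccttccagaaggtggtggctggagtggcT
Of all stretches of 31 bases in the first listed transcript, 71.5% of those of Hba-a1, 91.0% of those of Hba-a2, 66.9% of those of Hbb-bs and 59.4% of those of Hbb-bt also occur in another gene. The split of reads within the alpha pair and within the beta pair is therefore uncertain, and the sum of each pair is given as well. No stretch of Alas2 occurs in another gene on the same strand, while 282 of its 2007 stretches lie opposite to the neighbouring gene Apex2; the libraries were stranded.

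The promoters are shown for their letters, and no value here bears on how they are used. The 150 bases before the RefSeq start (GRCm38.p6, gene strand, 5′ to 3′) are chr11:32296342-32296491 on the plus strand for Hba-a2, chr7:103827929-103828078 on the minus strand for Hbb-bs, chr7:103813924-103814073 on the minus strand for Hbb-bt and chrX:150547267-150547416 on the plus strand for Alas2. The promoter of Hba-a1 shares an unbroken 297 of its 300 bases with that of Hba-a2 and is not repeated. Capitals mark matches, on either strand, to 5 motifs: AGATAA and TGATAA, which share GATAA and are forms of the GATA motif, CACCC of the Klf family, CCAAT, and TATAAA.
Hba-a2: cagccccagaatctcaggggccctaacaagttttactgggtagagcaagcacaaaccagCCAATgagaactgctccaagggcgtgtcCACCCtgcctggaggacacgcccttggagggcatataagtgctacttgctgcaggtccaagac
Hbb-bs: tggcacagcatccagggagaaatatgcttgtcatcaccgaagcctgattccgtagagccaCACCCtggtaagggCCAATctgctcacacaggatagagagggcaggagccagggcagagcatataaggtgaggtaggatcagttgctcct
Hbb-bt: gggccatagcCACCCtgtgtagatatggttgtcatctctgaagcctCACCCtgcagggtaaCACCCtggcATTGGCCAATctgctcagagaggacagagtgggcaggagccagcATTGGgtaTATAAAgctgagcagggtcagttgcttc
Alas2: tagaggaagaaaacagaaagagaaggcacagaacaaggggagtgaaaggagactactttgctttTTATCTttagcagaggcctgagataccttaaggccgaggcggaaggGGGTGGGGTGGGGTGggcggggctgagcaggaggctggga
Over the whole window of 300 bases, CACCC was present in all 5 promoters, against 57.5% of 32851 promoters of the same length, and CCAAT in the 4 chain genes, against 37.4%. AGATAA was found in Hbb-bs and Alas2, against 11.2% of all promoters, TGATAA in both Hba genes, against 9.05%, and TATAAA in Hbb-bt and Alas2, against 13.6%. These matches describe the letters only.

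The alpha chain gene Hba-a2 was the most abundant of the 5 genes, at a mean of 252 TPM over the 12 libraries, followed by Hbb-bs at 186 TPM, Hba-a1 at 140.02 TPM, Hbb-bt at 27.8 TPM and Alas2 at 12.5 TPM. By mean TPM, Hbb-bs ranked 364 and Alas2 ranked 5685 among the 10481 genes. The library values of Hba-a2, Hbb-bs and Hba-a1 overlap, while all those of Hbb-bt and Alas2 lie below them. The 4 chains together made up between 0.0359% and 0.0927% of the TPM of a library, so they were a small share of the RNA of these muscles, whose fiber genes Acta1 (skeletal actin) and Myh4 (a fast myosin heavy chain) each reached at least 15946 TPM. TPM carries no sequencing depth and read counts were not used here, so no counting error is given for these values. The TPM of the table add up to 923295 to 924762 in the ground and 937534 to 946314 in the flight gastrocnemius, and to 952229 to 961683 in the ground and 964792 to 966638 in the flight quadriceps. These sums do not overlap between the groups; their part in the differences below was not tested, and median-ratio scaling called none of the 5 genes either.

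**Figure D1:**
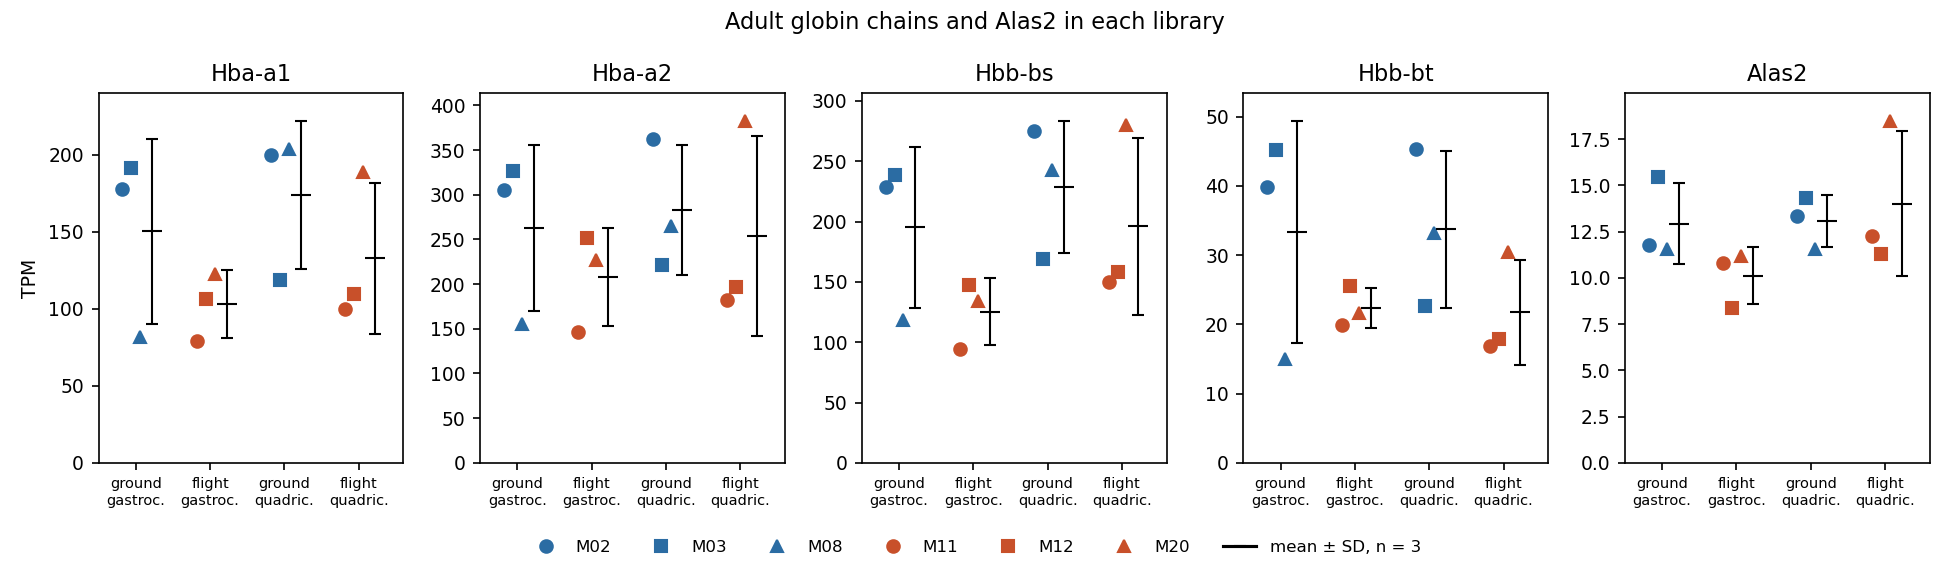
TPM of the 4 globin chain genes and Alas2 in each of the 12 libraries, by group; each symbol is 1 mouse, and bars show the mean ± SD of 3 mice. In the gastrocnemius M02 and M03 are high and M08 is low in every chain gene, while in the quadriceps the flown mouse M20 lies within or above the ground values.

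In the gastrocnemius, Hba-a2 was at 305, 327 and 156 TPM in ground mice M02, M03 and M08, and at 147, 251.1 and 227 TPM in flown mice M11, M12 and M20. In the quadriceps of the same mice it was at 363, 221 and 265 TPM on the ground and at 182, 197 and 383 TPM after flight. In both muscles the groups overlapped, and the mouse that was lowest on the ground in the gastrocnemius, M08, was not the lowest in the quadriceps. The group means were 263 ± 93.0 TPM (SD, n = 3) on the ground and 208 ± 54.7 TPM after flight in the gastrocnemius, and 283 ± 72.4 and 254 ± 112 TPM in the quadriceps.

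Hba-a1, the other alpha chain gene, was at 178, 192 and 81.6 TPM in the ground gastrocnemius and at 79.3, 107 and 123 TPM in the flight gastrocnemius. In the quadriceps it was at 199.6, 119 and 204 TPM on the ground and at 99.8, 109.5 and 189 TPM after flight. The groups overlapped in both muscles. The order of the libraries differed in part from that of Hba-a2: the ground quadriceps of M08 gave 43.4% of its alpha chain TPM to Hba-a1, the flight gastrocnemius of M12 gave 29.8%, and the other libraries gave 33.1% to 37.0%. The flight quadriceps of M20, the highest library in Hba-a2, was below 3 ground libraries in Hba-a1.

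Hbb-bs, the more abundant beta chain gene, was at 229, 238 and 118 TPM in the ground gastrocnemius and at 94.1, 148 and 134 TPM in the flight gastrocnemius. In the quadriceps it was at 275, 169 and 242 TPM on the ground and at 149.8, 158 and 280.1 TPM after flight. As in the alpha chains, M08 held the low ground value in the gastrocnemius, M03 in the quadriceps, and M20 the high flight value in the quadriceps. Hbb-bt was at 39.8, 45.1 and 15.0 TPM in the ground and at 19.9, 25.5 and 21.7 TPM in the flight gastrocnemius. Its quadriceps values were 45.3, 22.7 and 33.1 TPM on the ground and 16.9, 17.9 and 30.5 TPM after flight. All 3 flight values in the gastrocnemius lay between the low ground mouse and the other ground mice.

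Alas2 varied less. It was at 11.8, 15.4 and 11.6 TPM in the ground gastrocnemius and at 10.8, 8.38 and 11.2 TPM in the flight gastrocnemius, which do not overlap, although the highest flight and the lowest ground library lie close together. In the quadriceps it was at 13.4, 14.3 and 11.5 TPM on the ground and at 12.3, 11.3 and 18.5 TPM after flight, where M20 stood above all other libraries and the groups overlapped. M08, low in every chain gene in the gastrocnemius, was not low in Alas2 when set beside M02.

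The libraries differed more in the amount of globin RNA than in the proportions of its chains. The sum of the 4 chains was 751, 802 and 371 TPM in the ground gastrocnemius, 339.9, 531 and 506 TPM in the flight gastrocnemius, 883, 531 and 745 TPM in the ground quadriceps, and 448, 482 and 882 TPM in the flight quadriceps. Over the 12 libraries this sum spanned a 2.60-fold range, whereas the ratio of the beta pair to the alpha pair spanned a 1.33-fold range, from 0.444 to 0.592. Across the 12 libraries, which come from 6 mice, the chain genes correlated with each other with r of 0.83 to 0.96 on log2(TPM + 1), and each correlated with Alas2 with r of 0.37 to 0.60. About the 4 group means, r among the chains was 0.92 to 0.98 and that with Alas2 was 0.40 to 0.46. These r describe the libraries, and members of 1 sample share its blood content and scaling.

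Their spread between mice of a group was wide for genes of their level. The SD of log2(TPM + 1) within groups was 0.46 to 0.60 for the chain genes in the gastrocnemius, where the median over all 10481 genes was 0.15, and 0.44 to 0.49 in the quadriceps, where the median was 0.17. Of the genes within 0.5 log2 units of the level of Hbb-bs, 97.4% had a smaller SD in the gastrocnemius and 94.6% in the quadriceps. For Alas2 the SD was 0.21 and 0.27, above that of 78.0% and 79.0% of genes of like level.

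Some proportions did not overlap between the groups in a single muscle. Of all single genes, 21% did not overlap in the gastrocnemius and 17.4% in the quadriceps. The beta to alpha ratio was 0.556, 0.547 and 0.562 in the ground gastrocnemius and 0.505, 0.484 and 0.444 in the flight gastrocnemius, with no overlap. In the quadriceps it was 0.570, 0.563 and 0.587 on the ground and 0.592, 0.573 and 0.543 after flight, with overlap. The share of Hbb-bt in the beta pair was 14.1%, 11.8% and 12.02% in the ground quadriceps and 10.1%, 10.2% and 9.81% in the flight quadriceps, again without overlap, but in the gastrocnemius the groups overlapped at 14.8%, 15.9% and 11.3% on the ground and 17.4%, 14.7% and 13.9% after flight. These ratios were looked at after the values were seen, combine members, and were given no test; the split within a pair carries the uncertainty of the near-identical copies and, for the beta pair, of the haplotype.

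**Figure D2:**
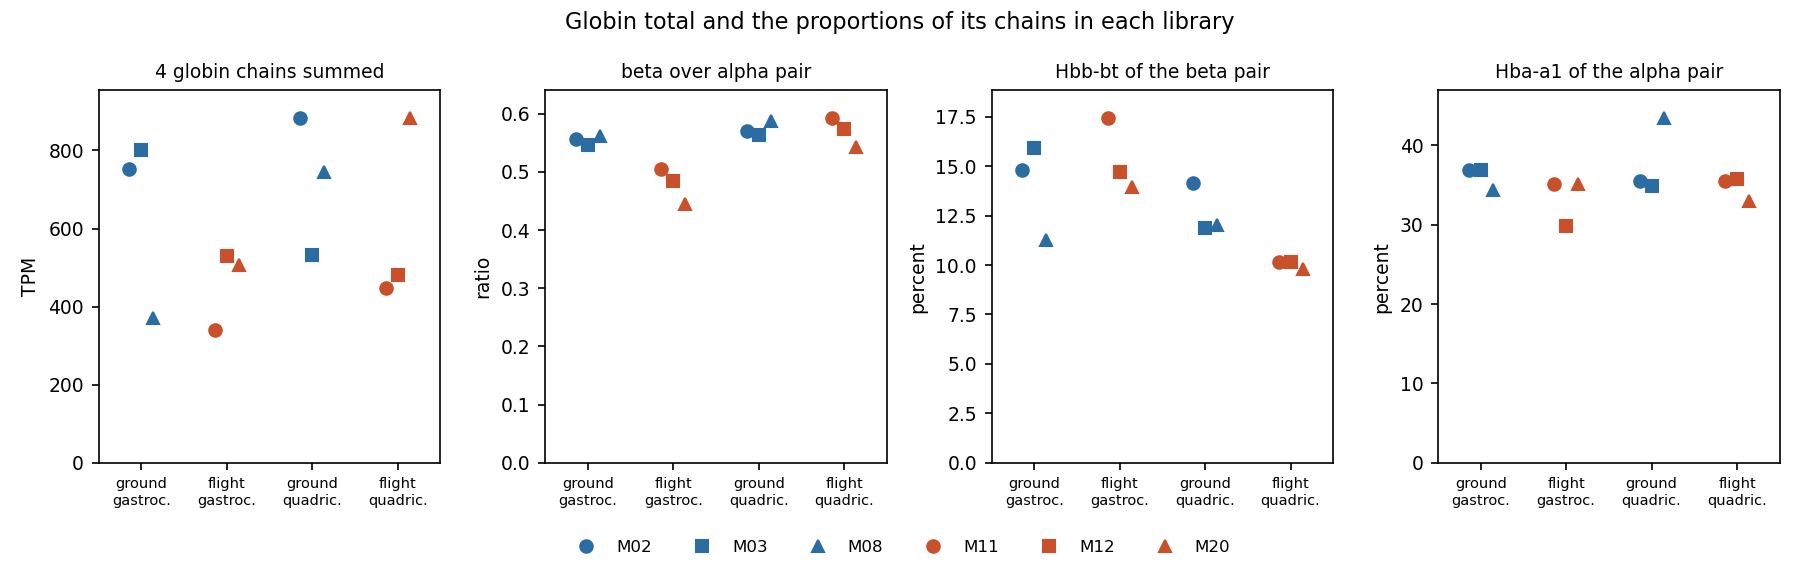
The sum of the 4 globin chains (TPM), the ratio of the beta to the alpha pair, and the percent of each pair held by its minor gene, in each library by group; each symbol is 1 mouse. The sum spreads from 339.9 to 883 TPM while the ratio stays between 0.444 and 0.592, with the flight gastrocnemius lowest.

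The first question of the design is whether flight changed these genes within a muscle. In the gastrocnemius all 5 were lower after flight on average, and none was called. The log2 difference between flight and ground was -0.47 (SE 0.32) for Hba-a1, -0.30 (SE 0.31) for Hba-a2, -0.59 (SE 0.28) for Hbb-bs, -0.42 (SE 0.36) for Hbb-bt and -0.32 (SE 0.15) for Alas2, on the log2(TPM + 1) scale, which understates changes of low genes. The limma test across all genes gave adjusted p of 0.518, 0.680, 0.367, 0.616 and 0.360 in that order; these p-values reflect the spread between these mice. A gene is called where its adjusted p is below 0.05 and its difference exceeds 1.5-fold: 0 of 5 genes were called against 0.229% of all genes called (24 of 10481), and 0 passed an unadjusted p of 0.05, against 15.1% of all genes. The median difference of the 5 genes was -0.42, against 0.02 over all genes. For 1 of 5 genes, Alas2, the groups did not overlap, against 21% of all genes. The 95% interval of Hbb-bs ran from -1.25 to 0.06, so both no difference and a loss of more than 1 log2 unit lie within it.

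Single libraries weighed on these differences in both directions. Without ground mouse M08 the log2 difference in the gastrocnemius was -0.86 for Hba-a1, -0.63 for Hba-a2, -0.92 for Hbb-bs and -0.90 for Hbb-bt, and none of these was called (limma adjusted p from 0.1001 to 0.390). Without ground mouse M03 it was -0.25 for Hba-a1, -0.10 for Hba-a2, -0.42 for Hbb-bs and -0.14 for Hbb-bt, and without flown mouse M11 it was -0.06 for Hba-a2. Summed over the copies, the difference was -0.36 (95% interval -1.08 to 0.36) for the alpha pair and -0.57 (-1.25 to 0.10) for the beta pair. The difference of Alas2 ran from -0.39 without flown mouse M20 to -0.20 without ground mouse M03. With any 1 library left out, all 5 genes kept a lower flight mean in this muscle, and none was called.

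In the quadriceps 4 of the 5 genes were lower after flight on average, as were 47.9% of all genes. Alas2 was level, and again none was called. The log2 difference was -0.41 (SE 0.29) for Hba-a1, -0.21 (SE 0.30) for Hba-a2, -0.25 (SE 0.27) for Hbb-bs, -0.61 (SE 0.30) for Hbb-bt and 0.07 (SE 0.19) for Alas2. By limma the adjusted p ran from 0.509 for Hbb-bt to 0.920 for Alas2, with 0 of 5 genes called, against 0.0286% of all genes (3 of 10481), and 0 at an unadjusted p of 0.05, against 10.8% of all genes. The median difference of the 5 genes was -0.25, against 0.01 over all genes. No gene of the 5 had groups that did not overlap, against 17.4% of all genes. The ground library of M08 stands apart in this muscle, with 18172 genes listed above 0 where the other 11 libraries list 20291 to 21265. Without it the log2 differences were -0.27, -0.24, -0.20, -0.59 and -0.01 in the same order, and none was called. Other libraries moved the chain genes more: with any 1 left out, the difference ran from -0.69 to -0.23 for Hba-a1, -0.55 to -0.01 for Hba-a2, -0.54 to -0.09 for Hbb-bs and -0.86 to -0.37 for Hbb-bt. The lowest value of each came without M20 of the flown mice, and none was called. Summed over the copies, it was -0.29 (95% interval -0.98 to 0.41) for the alpha pair and -0.30 (-0.95 to 0.36) for the beta pair, which is smaller in size than the -0.61 of Hbb-bt alone.

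Taking the mouse as the unit, with 1 value for each from the mean of both muscles, gave narrower intervals. The log2 difference was -0.44 (95% interval -0.90 to 0.03) for Hba-a1, -0.25 (-0.79 to 0.28) for Hba-a2, -0.42 (-0.86 to 0.02) for Hbb-bs, -0.51 (-1.01 to -0.02) for Hbb-bt and -0.13 (-0.46 to 0.21) for Alas2. With limma, 0 of 5 genes were called, with adjusted p from 0.263 to 0.672, against 0.124% of all genes (13 of 10481). At an unadjusted p of 0.05, 1 of 5 genes passed, Hbb-bt, beside 1887 of all genes, and the median difference was -0.42 against 0.02. Summed over the copies, the log2 difference was -0.32 (-0.83 to 0.18) for the alpha pair and -0.43 (-0.88 to 0.01) for the beta pair. With any 1 mouse left out, the difference ran from -0.65 to -0.26 for Hba-a1, -0.46 to -0.04 for Hba-a2, -0.60 to -0.25 for Hbb-bs, -0.75 to -0.30 for Hbb-bt and -0.26 to -0.0046 for Alas2. Each chain gene thus had a lower average in flown mice, as had 45.9% of all genes, and none passed the test across all genes.

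**Figure D3:**
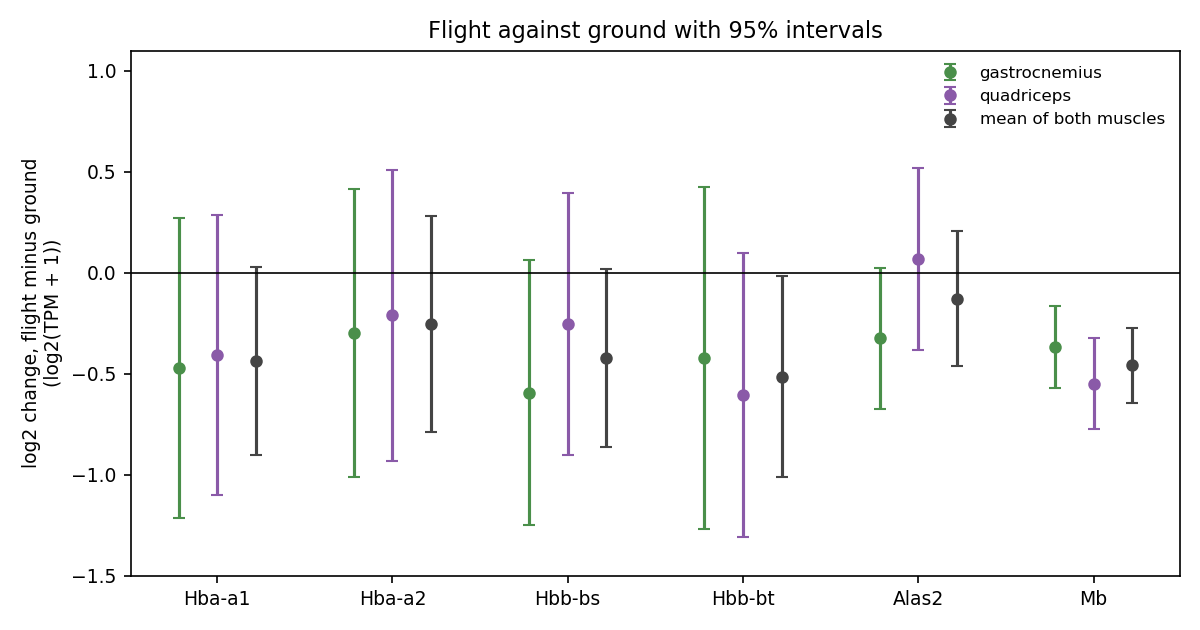
Log2 difference between flight and ground on the log2(TPM + 1) scale, with 95% intervals from limma, for the 4 chain genes, Alas2 and myoglobin (Mb) in each muscle and over the mean of both (3 mice against 3). Of the 12 intervals of the chain genes all but that of Hbb-bt over the mean of both muscles cross 0, while those of Mb lie below 0 from -0.16 downward.

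Whether the flight difference itself differed between the muscles was tested within the mice. The signed difference in the quadriceps minus that in the gastrocnemius was 0.07 log2 units for Hba-a1, 0.09 for Hba-a2 and 0.34 for Hbb-bs, which were lower after flight by less in the quadriceps. It was -0.18 for Hbb-bt, lower by more there, and 0.39 (95% interval 0.01 to 0.77) for Alas2. Leaving out 1 mouse gave values of both signs for each chain gene, and the summed beta pair was at 0.28. By limma 0 of 5 genes were called, with adjusted p of 0.957 or more, against 0% of all genes, and 1 of 5 (Alas2) passed an unadjusted p of 0.05, beside 5.09% of all genes. The median of the 5 was 0.09, against 0.00 over all genes. The non-overlap of Alas2 in the gastrocnemius is therefore not shown to be particular to that muscle.

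The second question is how the muscles compare within a mouse. On average all 5 genes were higher in the quadriceps, by 0.30 log2 units (SE 0.20) for Hba-a1, 0.19 (SE 0.17) for Hba-a2, 0.44 (SE 0.19) for Hbb-bs, 0.01 (SE 0.23) for Hbb-bt and 0.22 (SE 0.10) for Alas2. So were 7189 of all 10481 genes. The median of the 5 was 0.22. The median over all genes was itself 0.11 in this comparison and -0.02 after median-ratio scaling. Hbb-bt, at 0.01, lay below the median over all genes and turned to -0.12 with that scaling. Part of each of the other values is shared with the bulk of the genes. By limma 0 of 5 genes were called, against 3.36% of all genes (352 of 10481), and 1 of 5, Hbb-bs, passed an unadjusted p of 0.05, a smaller share than the 41.6% of all genes; the adjusted p ran from 0.108 to 0.974. Hbb-bs was higher in the quadriceps in 5 of 6 mice, the exception being M03, and without M03 its difference was 0.62 with an adjusted p of 0.0197 by limma, which is called. With median-ratio scaling it was 0.30, and 0.16 for Hba-a1, 0.05 for Hba-a2 and 0.09 for Alas2, none of them called. With any 1 mouse left out, the difference ran from 0.31 to 0.62 for Hbb-bs, 0.09 to 0.49 for Hba-a1, 0.08 to 0.34 for Hba-a2 and 0.12 to 0.28 for Alas2. Summed over the copies it was 0.23 (95% interval -0.18 to 0.64) for the alpha pair and 0.38 (-0.05 to 0.81) for the beta pair, against 0.01 for Hbb-bt alone.

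Both muscles of 1 animal did not carry matching amounts of globin RNA. The globin sum in the quadriceps over that in the gastrocnemius was 1.18 in M02, 0.662 in M03, 2.01 in M08, 1.32 in M11, 0.909 in M12 and 1.74 in M20. M03 had the highest sum of the 6 mice in the gastrocnemius and the lowest of the ground mice in the quadriceps, while M08 had the lowest sum of the ground mice in the gastrocnemius and stood between M03 and M02 in the quadriceps. The differences between the muscles of 1 mouse were thus of the size of the differences between mice.

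Across the 6 mice, the Pearson r between the muscles was 0.15 for Hba-a1, 0.30 for Hba-a2, 0.20 for Hbb-bs, 0.15 for Hbb-bt and 0.38 for Alas2. Two-sided exact permutation tests over all 720 pairings gave p of 0.681, 0.507, 0.640, 0.738 and 0.415 in that order, each 0.738 after Benjamini-Hochberg adjustment over the 5 tests. Spearman rho was 0.26 for Hba-a1, Hba-a2 and Hbb-bs (exact permutation p = 0.658 each, adjusted 0.823), 0.09 for Hbb-bt (exact permutation p = 0.919, adjusted 0.919) and 0.54 for Alas2 (exact permutation p = 0.297, adjusted 0.823). Without the 2 mice farthest from the gastrocnemius median, r was 0.22 for Hba-a1, -0.24 for Hba-a2, 0.31 for Hbb-bs, -0.61 for Hbb-bt and -0.13 for Alas2, so no relation held for all 5 genes.

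After the group means were subtracted, r was -0.09, 0.24, -0.00, -0.13 and 0.67 in the same order, so that only Alas2 had an r above 0.3 within the arms. With the copies summed, r was 0.13 for the alpha and -0.035 for the beta pair after this subtraction, and 0.25 and 0.20 before it. Without the subtraction, the median over 10463 genes with a defined r was 0.30. On the same basis, 56.7% of genes had an r at least as high as that of Hbb-bs and 44.2% one as high as that of Alas2. The chain genes therefore lay in the middle of all genes in this respect, in contrast to myoglobin, whose r was 0.97.

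**Figure D4:**
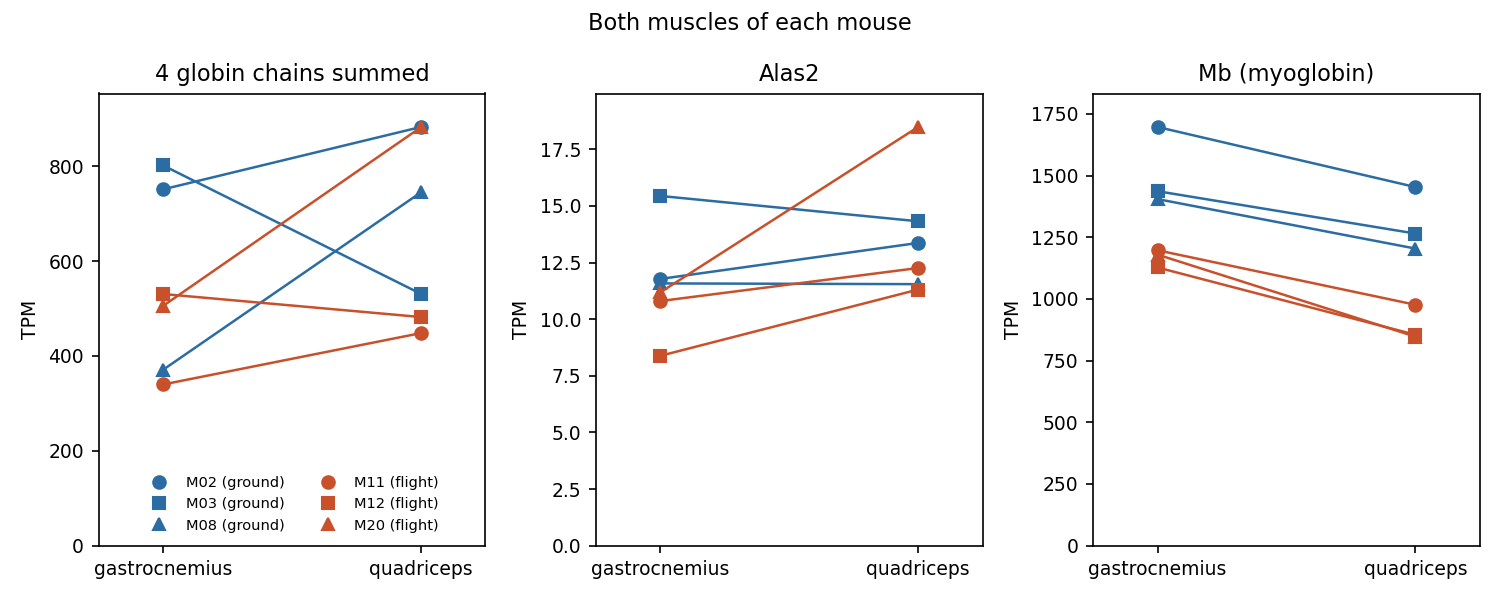
TPM in the gastrocnemius and the quadriceps of each of the 6 mice, joined by a line, for the sum of the 4 globin chains, for Alas2 and for Mb. The lines of the globin sum cross, with ratios from 0.662 in M03 to 2.01 in M08, while Mb is lower in the quadriceps in all 6 mice, with ground above flight in both muscles.

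Myoglobin, the heme protein of the fiber itself, had a different pattern. Mb was at 1697, 1437 and 1405 TPM in the ground gastrocnemius and at 1197, 1128 and 1179.6 TPM in the flight gastrocnemius. In the quadriceps it was at 1454, 1265 and 1204 TPM on the ground and at 977, 855 and 847 TPM after flight. The groups did not overlap in either muscle, where 21% of all genes did not in the gastrocnemius and 17.4% in the quadriceps. The log2 difference was -0.37 (SE 0.09) in the gastrocnemius, -0.55 (SE 0.09) in the quadriceps and -0.46 (95% interval -0.64 to -0.27) over the mean of both, and Mb was not called by limma, with adjusted p of 0.156, 0.244 and 0.0658. Cytoglobin (Cygb), a globin of connective tissue cells, was at 5.78 to 9.19 TPM with no call, and neuroglobin (Ngb) reached at most 0.420 TPM.

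The remaining hemoglobin chains were absent or nearly so. Of 7 embryonic and other chain genes, 5 were listed at 0 in all 12 libraries (Hbb-y, Hbb-bh1, Hbb-bh2, Hbb-bh0 and Hbq1a). Hba-x and Hbq1b were each above 0 in a single flight gastrocnemius library, at 0.0817 and 0.128 TPM.

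None of the 7 other enzymes of heme synthesis analysed here was called in any comparison. Alas1, the housekeeping form of the first enzyme, was at 58.4 to 72.9 TPM, several times the level of Alas2 in every library, and Fech, which inserts the iron in the last step, was at 56.6 to 74.3 TPM. Between them, Alad was at 25.6 to 40.3 TPM, Uros at 7.25 to 12.9, Urod at 28.8 to 44.7, Cpox at 11.8 to 18.4 and Ppox at 5.45 to 7.87 TPM. After flight none passed an unadjusted p of 0.05 in either muscle; their median log2 difference was -0.03 in the gastrocnemius and -0.11 in the quadriceps, against 0.02 and 0.01 over all genes. Uros and Urod were lower after flight without overlap in the quadriceps, where 17.4% of all genes did not overlap. Between the muscles Uros (0.36, limma adjusted p = 0.0155) and Urod (0.23, adjusted p = 0.0146) were higher in the quadriceps in 6 of 6 mice, each by less than 1.5-fold and so not called. With median-ratio scaling these were 0.23 (adjusted p = 0.0832) for Uros and 0.10 (adjusted p = 0.229) for Urod, and without the filter the adjusted p of Uros was 0.0521. The share of all genes higher in 6 of 6 mice is not given here. As 7189 of 10481 genes were higher in the quadriceps on average, a count of 6 of 6, here and below, is a description only. In r with the mean of the 5 standardised genes over the 12 libraries, Urod (0.48) came first of the 7 and Alas1 (-0.38) last.

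Genes that carry heme, its precursors or iron for its synthesis, 11 of 12 tested, held no call in any comparison. The most abundant were Iscu, a scaffold for iron-sulfur clusters, at 52.3 to 78.9 TPM, Clpx, a mitochondrial unfoldase that acts on the first enzyme of heme synthesis, Tmem14c and the heme exporter Flvcr1; the median log2 difference of the 11 after flight was -0.04 in the gastrocnemius and -0.13 in the quadriceps. Slc25a37 and Slc25a38, the mitochondrial carriers used for iron and glycine, stood at 6.94 to 8.95 and at 5.003 to 8.56 TPM. Of 6 tested genes of heme breakdown and scavenging, none was called after flight, while Cd163, the macrophage receptor for the hemoglobin and haptoglobin complex, was called higher in the quadriceps (0.68, SE 0.12, limma adjusted p = 0.00306, higher in 6 of 6 mice), though under 1.5-fold and so not called with median-ratio scaling (0.56). Cd163 passed the filter only through quadriceps libraries (3.04 to 4.61 TPM in the gastrocnemius), so its value between the muscles is a description. The inducible heme oxygenase Hmox1 stayed at 1.18 to 3.36 TPM and was not tested, and Hmox2, Lrp1, Blvra and Blvrb were not called.

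Of 11 genes of iron uptake, storage and export, the ferritin chains Fth1 (708 to 866 TPM) and Ftl1 (83.4 to 139.6 TPM) were the most abundant, followed by the transferrin receptor Tfrc (21.3 to 36.6 TPM) and Ncoa4, a receptor for the breakdown of ferritin (22.1 to 36.8 TPM). None was called after flight. Ncoa4 was lower after flight without overlap in the gastrocnemius (-0.20, limma adjusted p = 0.318) and the quadriceps (-0.37, adjusted p = 0.298). Of all genes, 21% and 17.4% did not overlap there. Transferrin (Trf) was called higher in the quadriceps (0.85, SE 0.11, limma adjusted p = 8.9e-04, higher in 6 of 6 mice).

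Genes of the red cell itself were mostly near 0. Of 19 such genes analysed here, 4 passed the filter, and defining ones did not: the anion exchanger Slc4a1 was at 0.0273 to 1.46 TPM, the membrane protein Epb42 at 0.466 to 1.38 TPM and the blood group glycoprotein Rhag at 0.0622 to 0.5015 TPM. The 4 that passed were the water channel Aqp1 (93.9 to 119.9 TPM), Bpgm, Tmcc2 and Ube2l6, and none was called in any comparison; Aqp1 is also a gene of capillary endothelium. Aqp1 was at 119.9, 116.4 and 110.9 TPM in the ground and 99.3, 94.7 and 100.3 TPM in the flight gastrocnemius. These groups did not overlap (-0.24, limma adjusted p = 0.218), as for 21% of all genes in this muscle, while those of Bpgm, Tmcc2 and Ube2l6 did. The r with the mean of the 5 standardised genes was 0.70 for Aqp1, 0.51 for Ube2l6, 0.29 for Tmcc2 and 0.14 for Bpgm. Of the other genes that passed the filter, 0.821%, 7.02%, 32.0% and 52.1% had an r at least as high, in that order. Outside the red cell genes, r ran from -0.46 for Ttn to 0.69 for Lrp1, with 0.65 for Acta1. In each library the summed level of the list was 178 to 221 TPM, most of it Aqp1 and Bpgm. Of the 7 red cell genes that muscle uses as well, Ank1 (305 to 709 TPM) was called higher in the quadriceps (0.71, SE 0.06, limma adjusted p = 2.5e-04; 0.57 and not called with median-ratio scaling), and the rest, Epb41, Bnip3l and Sptb among them, were not called.

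Erythroid transcription factors were close to 0 too. Gata1 was at 0 to 0.220 TPM and Klf1 at 0 to 0.488 TPM, Tal1 reached at most 1.27 TPM and the erythropoietin receptor Epor 0.467 TPM. Only Zfpm1 (0.891 to 5.51 TPM) and Lmo2 (2.03 to 6.18 TPM) of 8 passed the filter, and neither was called. Zfpm1 was higher after flight in the quadriceps without overlap (0.98, limma adjusted p = 0.362), where 17.4% of all genes did not overlap. Its ground values there were low, at 2.22, 1.61 and 0.891 TPM. The lowest was M08, the library with the fewest genes above 0. Globin RNA was thus measured in all libraries with little RNA of the membrane and regulatory genes of red cell precursors beside it.

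Genes of other blood cells were measured beside the globin chains. The summed level of 11 neutrophil genes was 1.80 to 3.30 TPM in the 6 gastrocnemius libraries. In the quadriceps it was 3.43, 5.65 and 44.1 TPM in ground mice M02, M03 and M08 and 38.2, 52.8 and 31.1 TPM in the flown mice, so 1 ground mouse stood with the flown ones. The most abundant were S100a9, at 1.23, 2.79 and 11.3 TPM on the ground and 17.2, 21.4 and 13.7 TPM after flight in the quadriceps, and S100a8; Elane was at 0 in 10 of 12 libraries. S100a8 (2.52, SE 0.51, limma adjusted p = 0.00633) and S100a9 (2.56, SE 0.52, adjusted p = 0.00652) were called higher in the quadriceps, in 6 of 6 mice each. Both passed the filter only through quadriceps libraries, with at most 0.157 and 1.03 TPM in the gastrocnemius, so these values between the muscles are a description. Under the alternatives they ran from 2.21 to 4.62 for S100a8 and from 2.18 to 3.82 for S100a9. Neither was called after flight. Over the 12 libraries S100a8 and S100a9 had an r of 0.14 and 0.15 with the mean of the 5 standardised genes. The quadriceps of M02 and M20 had nearly equal globin sums, at 883 and 882 TPM, and neutrophil sums of 3.43 and 31.1 TPM. This pair was picked after the values were seen, and no relation between the sums was tested.

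Platelet genes summed to 6.83 to 16.8 TPM, highest in the quadriceps of M02, mostly Pf4, Gp1ba and Itga2b, with Pf4 the only 1 of 9 tested and not called. Of 10 lymphocyte genes only Ighm was tested; it was at 2.93 to 5.84 TPM in the gastrocnemius and 4.49 to 26.7 TPM in the quadriceps, where it was called higher (1.15, SE 0.21, limma adjusted p = 0.00407, 6 of 6 mice). Of the macrophage genes Lyz2 was at 12.9 to 31.6 TPM, and none of the 3 tested was called. In the ground gastrocnemius M08 was low in Lyz2 as in the chain genes, and in the flight quadriceps M20 was the lowest in Lyz2 and the highest in globin. These mice too were picked after the values were seen. The r with the mean of the 5 standardised genes was 0.26 for Lyz2, 0.05 for Mrc1 and -0.08 for Csf1r. The 12 endothelial genes were all tested, with no call in any comparison. Egfl7 (40.9 to 105.8 TPM), Pecam1, Flt1 and Cdh5 were the most abundant. The median log2 difference of the 12 after flight was 0.00 in the gastrocnemius and -0.05 in the quadriceps. Between the muscles it was -0.14, against 0.11 over all genes, with 11 of the 12 lower in the quadriceps. Of 10 skeletal muscle genes, Pvalb was called higher in the quadriceps (0.64, SE 0.06, limma adjusted p = 2.5e-04; 0.50 and not called with median-ratio scaling) and none was called after flight. The part of blood or vessel content in the globin values was not tested.

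**Figure D5:**
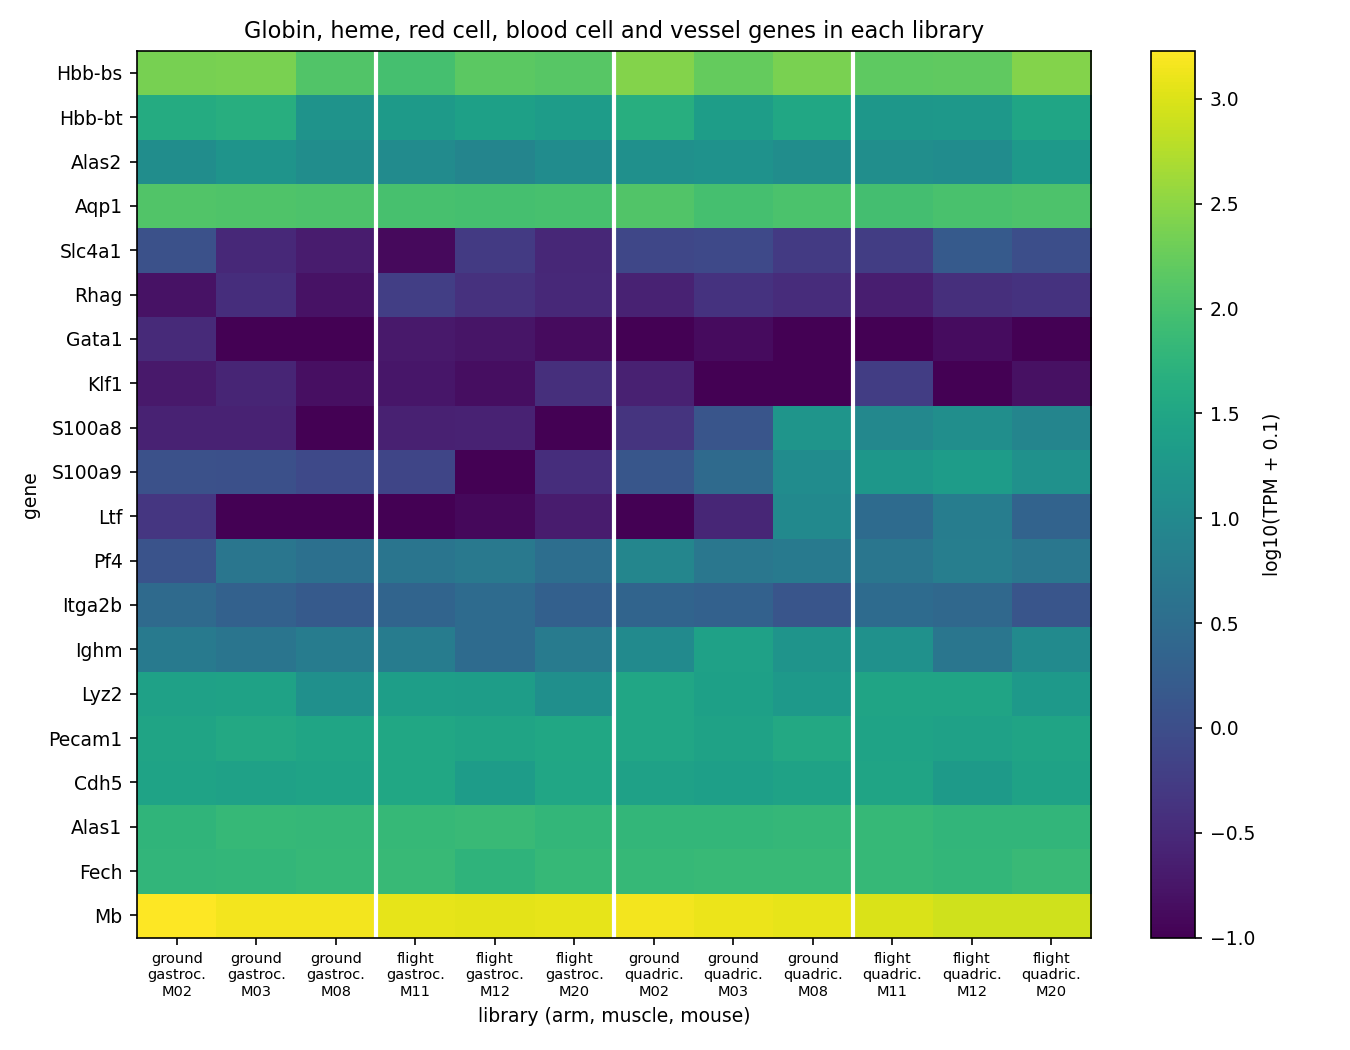
Log10(TPM + 0.1) of globin, heme, red cell, blood cell and vessel genes (rows) in the 12 libraries (columns; white lines part the 4 groups). Slc4a1, Rhag, Gata1 and Klf1 are dark in all libraries, and S100a8, S100a9 and Ltf are brighter in the quadriceps of M08, M11, M12 and M20 than in any other library.

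Together, the 15 other lists held 79 tested genes, of which limma called 0 after flight in the gastrocnemius, 0 in the quadriceps and 0 over the mean of both muscles, with 7, 8 and 8 at an unadjusted p of 0.05, where 1580, 1136 and 1887 of all 10481 genes passed. Between the muscles 7 of the 79 were called, 3 of which passed the filter only through the quadriceps, against 3.36% of all genes, and 38 passed an unadjusted p of 0.05, against 41.6%. The genes whose pattern over the 12 libraries was most like the mean of the 5 standardised genes were Nfe2l2 (r = 0.88), Rfc2 (0.87), Atp6v1h, Fem1a, Usp39, Rundc1, Sdcbp, Magix, Ccdc117 and Polr2c (0.81). Nfe2l2, a transcription factor of the antioxidant response, spanned only 23.1 to 31.2 TPM, against 94.1 to 280.1 TPM for Hbb-bs. None of these 10 is a gene of the fixed lists of red cells or other blood cells.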

How the data were processed

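Polyadenylated RNA was sequenced as stranded single-end reads of 50 bases. The deposited table holds TPM, which the authors estimated with kallisto 0.46.0 and summed per gene with tximport; the annotation they used is not given in the sources used here. TPM carries no depth, so no counting error is given. Of 36008 gene identifiers, 35856 had a symbol in the reference table. The 5 genes and the gene lists were chosen with earlier results of these data known. Genes named from each list are the up to 4 of highest mean TPM, any that was called and the heme synthesis enzymes analysed; some genes of the lists are not reported here, and their lists were counted without them; others, named for being at or near 0 or for their role, were chosen after their values were seen.

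Values were analysed as log2(TPM + 1) with limma 3.58.1 in R 4.3.3 (eBayes with trend, two-sided, Benjamini-Hochberg over all 10481 genes), a method tested on simulated data. Flown and ground mice were compared for each muscle alone and for the mean of both muscles of a mouse. The difference of the flight effect between muscles and the comparison of muscles had the mouse, numbered in the sample titles, as a block. Correlations between muscles used exact permutation of 6 mice. Promoters came from RefSeq (5 of 5 genes matched) and transcripts from GENCODE vM21. The authors' splicing tables were not used here.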

Additional observations from a re-analysis of the deposited data

Results flagged for a closer look

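The neutrophil gene S100a9 was flagged because the order of its groups differed between the muscles: in the gastrocnemius every flight library (0.664, 0 and 0.254 TPM) was below every ground library (1.03, 0.986 and 0.747 TPM), and in the quadriceps every flight library was above every ground library. The gastrocnemius values are near 0 and their difference was not called (-0.59, limma adjusted p = 0.405). It was -1.76 with log2(TPM + 0.1), also not called. The gene passed the filter only through quadriceps libraries. The flight difference was 2.53 log2 units larger in the quadriceps (SE 0.66), which limma did not call (adjusted p = 0.811). Under the alternatives this value ran from 1.95 to 4.04 and was not called. None of the 5 globin and heme genes had such a pattern, and with groups of 3 no single library was tested for standing apart.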

How the results depend on the processing

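Each group holds 3 mice, the copies of each chain share most of their sequence, read counts were not used here, and blood content was not measured, so a difference smaller than the wide intervals given above would be missed. No member was called under any alternative, except Hbb-bs between the muscles without ground replicate 2. Of 330 log2 differences of the 5 genes under alternatives, 315 kept their direction and call, 14 turned and 1 became stronger; of 45 correlations between muscles, 7 turned. In these counts, the alternative with the copies summed gives each chain gene the value of its pair.

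Genes called in the gastrocnemius numbered 24, against 4 without the filter, 5 without the trend and 1 to 133 with 1 replicate left out. Median-ratio scaling called 6 higher and 12 lower there, where 12 and 12 were called. In the quadriceps 3 were called, against 1 with median-ratio scaling, 1 without the trend and 1 to 4 with a replicate left out. Over the mean of both muscles 13 were called, against 6 with log2(TPM + 0.1), 0 without the filter, 21 with a mean above 5 TPM, 27 with median-ratio scaling, 0 without the trend and 0 to 134 with a replicate left out. For the difference between muscles 0 were called, against 2 without the filter and 0 to 1 with a replicate left out. Between the muscles the 230 higher and 122 lower genes became 97 and 203 with median-ratio scaling.

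With a replicate left out, the quadriceps difference of Alas2 was -0.14 to 0.20. The difference of the flight effect between muscles was -0.41 to 0.59 for Hba-a1, -0.27 to 0.39 for Hba-a2, -0.0407 to 0.72 for Hbb-bs and -0.72 to 0.31 for Hbb-bt. It was 0.28 for the summed beta pair. Between the muscles the summed beta pair was at 0.38. Hbb-bt alone was at -0.20 to 0.21, and at -0.12 with median-ratio scaling, which also left Cd163 (0.56), Ank1 (0.57) and Pvalb (0.50) under 1.5-fold. The number of members called there was 0 to 1 and Hbb-bs reached 0.62 without ground replicate 2. The r between muscles was -0.22 to 0.52 for Hba-a1, -0.0566 to 0.53 for Hba-a2, -0.20 to 0.54 for Hbb-bs, -0.33 to 0.46 for Hbb-bt and 0.0763 to 0.853 for Alas2. S100a8 has no value with a mean above 5 TPM.

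The replicate numbers do not pair ground and flight mice. The correlation of same-numbered libraries was taken after the group mean of each gene was subtracted, so it describes only what is left about those means. It was -0.143, 0.111 and 0.00290 in the gastrocnemius and -0.139, -0.0653 and -0.180 in the quadriceps. Between the gastrocnemius and quadriceps of 1 mouse, with the same subtraction, it was 0.0943, 0.0142 and 0.163 on the ground and 0.333, 0.179 and -0.119 after flight. With the replicate number as a block, 0 genes were called in the gastrocnemius and 0 in the quadriceps.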
